A study of Homo sapiens with 20 samples.

Results

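The comparison described here is day 4 against day 2 of neuronal differentiation, the last interval before the cells were moved to a new surface. The neural progenitors came from H1, a widely used line of human embryonic stem cells, so the model is a single line. All cells had grown on Matrigel in a proliferation medium with FGF, and at day 0 they were switched to Neurobasal medium with B27 lacking vitamin A, without FGF and with BDNF. That medium was renewed every other day, and the time between the last renewal and each collection is not given in the sources used here. Both groups carried no genetic change and differed only in the time since the switch, with 3 cultures at day 2 and 3 at day 4 out of 20 cultures over 7 days. Replating on poly-D-lysine and laminin at day 4 applied only to cells collected later. The members were all gene records of the catalogue, 20237 coding and 18132 lincRNA records, 38369 in all, of which 11793 coding and 2650 lincRNA records had a mean of at least 1 FPKM over the 7 days. FPKM scales the count of sequenced fragments to the length of the transcript and to the size of the library. The change of a record is its log2(FPKM + 0.1) at day 4 less that at day 2, less the median of all 14443 expressed records, which was 0.004. The table holds 1 value per record and day, pooled over the 3 cultures, so no spread between cultures, no interval and no test could be given, and every difference below is a difference between 2 pooled values of unknown depth.

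Neural progenitors divide under FGF, which acts through the ERK kinase cascade and induces its own feedback inhibitors. When FGF is withdrawn, progenitors slow their cycle, proneural transcription factors are expressed, and the newborn neurons switch on genes for microtubules, axon guidance, adhesion and synapses while they lose the actin stress fibres and matrix contacts of a flat, spreading cell. Long intergenic noncoding RNAs (lincRNAs) are spliced transcripts without a protein product that are usually scarcer than messenger RNAs and often restricted to a cell type or stage.

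The markers of the labelled cell type were present on both days. The summed level of 6 progenitor markers was 4642 FPKM at day 2 and 3580 FPKM at day 4, and most of the difference lay in VIM, an intermediate filament gene, at 3914 and 2869 FPKM. SOX2, a progenitor transcription factor, was listed at 133 and 121 FPKM, and NES, which encodes nestin, at 515 and 507 FPKM. The sum of 6 neuron markers was 591 FPKM at day 2 and 719 FPKM at day 4. Its 5 members with at least 1 FPKM were DCX, STMN2, ELAVL3, MAP2 and a record in which TUBB3 is merged with MC1R and TUBB2C. Of the markers of other cells, several were near 0 on both days. GFAP of astrocytes was at 0.0710 and 0.0340 FPKM, POU5F1 of pluripotent cells at 0.0489 and 0.0675 FPKM, and PTPRC of blood cells at 0.00340 and 0.00564 FPKM, while KRT5 of epithelia and MYOD1 of muscle were listed at 0. Others had low values, as S100B of astrocytes was at 0.593 and 0.762 FPKM, EPCAM of epithelia at 0.607 and 0.689 FPKM and CD68 of blood cells at 1.40 and 1.06 FPKM. Of the 7 neural crest and mesenchyme markers, 2 had at least 1 FPKM, namely TFAP2B at 25.9 and 29.8 FPKM and LUM at 2.58 and 2.52 FPKM. Of the endothelial markers, KDR was at 6.49 FPKM at day 2 and 2.10 FPKM at day 4, with CDH5 at 0.151 and 0.0553 FPKM. The sum of all FPKM values was 381771 at day 2 and 376658 at day 4, within the range of 251156 to 413978 over the 7 days. In bulk RNA, fewer cells of a type and less RNA per cell cannot be told apart.

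Few coding genes differed by much between the 2 days, and the larger differences were mostly downward. Of 11793 expressed coding records, 15 (0.127%) were at least 2-fold higher at day 4 and 79 (0.67%) at least 2-fold lower. At a smaller fold of 1.5, 157 (1.33%) were higher and 346 (2.93%) lower. These shares are the background against which each gene group is read below. The median size of the change was 0.13 on the log2 scale in coding records, and it depended on the level, from 0.25 between 1 and 2 FPKM to 0.11 between 10 and 50 FPKM. The number of genes higher depended on the pseudocount: with 1 FPKM in place of 0.1 FPKM, 1 coding record was at least 2-fold higher and 40 were lower. The records nearest the 2-fold line were TUBB4 and ELK3 just inside, with changes of 1.01 and -1.0, and PRSS35 and TIMP4 just outside, with changes of 0.99 and -0.99.

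The interval was quieter than most of the course. From day 0 to day 1, 532 coding records (4.51%) were at least 2-fold higher and 261 (2.21%) lower. From day 1 to day 2, 13 (0.11%) were higher and 19 (0.161%) lower. From day 4 to day 5, across the replating, 44 (0.373%) were higher and 5 (0.0424%) lower. From day 5 to day 11, 308 (2.61%) were higher and 367 (3.11%) lower, and from day 11 to day 18, 216 (1.83%) were higher and 165 (1.4%) lower. These 6 intervals are of unequal length, and the one from day 2 to day 4 had the most lower coding records for each higher one.

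**Figure D1:**
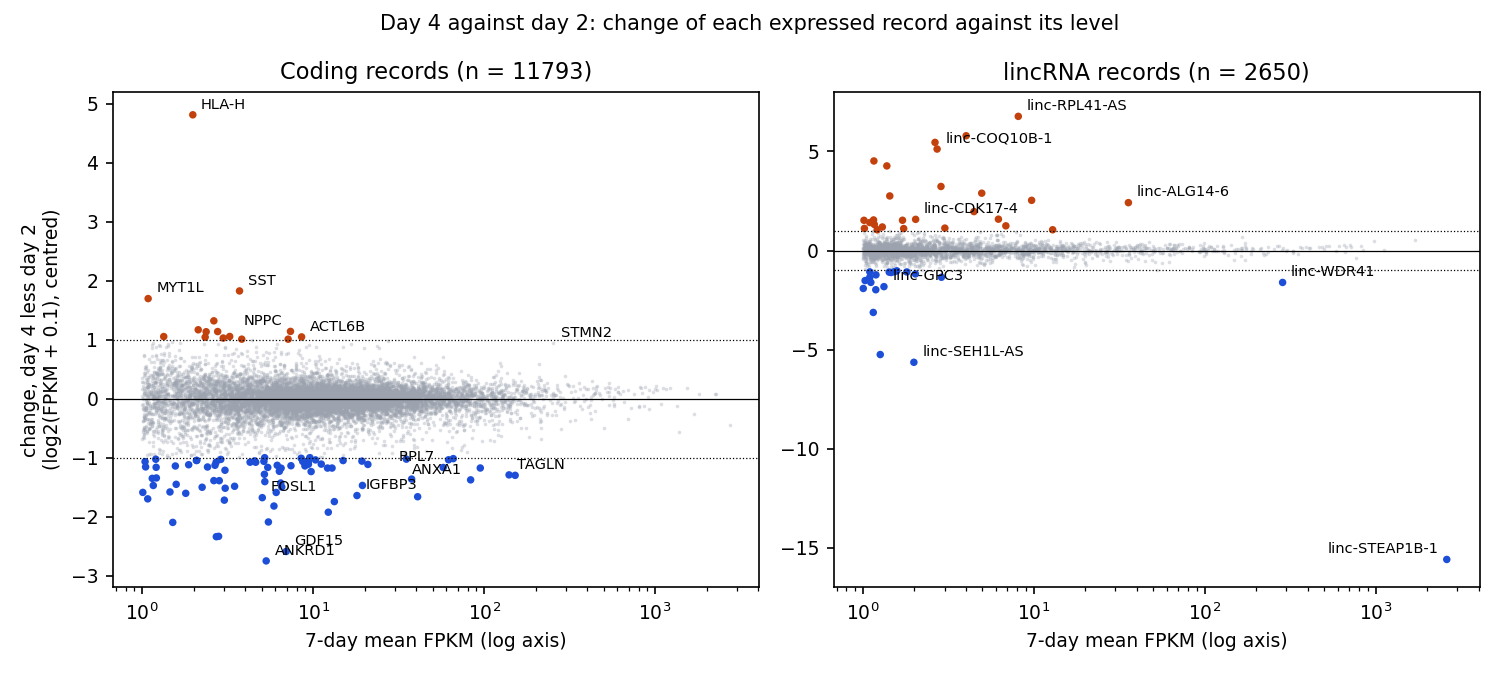
Change of every expressed record from day 2 to day 4 (vertical axis, log2(FPKM + 0.1), centred) against its mean FPKM over the 7 days (horizontal log axis), coding records left and lincRNA records right. Orange points are at least 2-fold higher, blue points at least 2-fold lower, and dotted lines mark 2-fold. The 79 blue coding points outnumber the 15 orange ones, and the vertical place of records listed at 0 on either day, such as linc-STEAP1B-1, is set by the pseudocount.

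The contractile actin cytoskeleton, the proteins of stress fibres and focal contacts, had the lowest median among the lists with at least 10 expressed members. All 19 expressed members had a change below 0, with a median of -0.68 against -0.004 (the median over all coding records), and 6 of 19 were at least 2-fold lower against 0.67% of all coding records. FLNC, a filamin that crosslinks actin, was at 12.9 FPKM at day 2 and 3.58 FPKM at day 4, 3.53-fold lower. CNN1, a calponin of smooth muscle, was at 4.86 and 1.80 FPKM. TAGLN, the actin-binding protein transgelin, was at 226 and 92.4 FPKM, 2.45-fold lower. It was at 106 FPKM on day 1 and 147 FPKM on day 5, a change of 0.52 where the list median was -0.54. The other members past 2-fold were TGFB1I1, a focal adhesion adaptor, at 23.6 and 11.4 FPKM, ACTN1, which encodes alpha-actinin, at 93.1 and 45.5 FPKM, and MYL9, a myosin light chain, at 104 and 51.6 FPKM. Thus the 2-fold differences covered genes at 4.86 FPKM and at 226 FPKM on day 2. Among the abundant members that did not reach 2-fold, FLNA (filamin A) was at 330 and 207 FPKM, TPM1 (tropomyosin) at 244 and 173 FPKM, TPM4 at 152 and 99.0 FPKM and MYH9 (non-muscle myosin heavy chain) at 111 and 62.5 FPKM. The smallest changes of the list belonged to VCL (vinculin), at 77.4 and 71.3 FPKM, and to SRF, the transcription factor of many actin genes, at 24.2 and 22.4 FPKM.

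Promoters of this list are shown because its members moved together and because SRF acts through a known DNA element, the CArG box. RefSeq holds the promoter of 17 of the 19 members, and 4 of the 17 (23.5%) had a CArG box on either strand in the window from 250 bases before the gene start to 50 after it, against 1.3% of 27305 RefSeq promoters and 1.2% of the 9814 promoters of expressed coding records. Of the 49 coding genes at least 2-fold lower that have a RefSeq promoter, 1 (2.0%, ARHGDIB) had a CArG box. Among 12 immediate early promoters it was in 1 (8.3%, EGR1). This motif was chosen after the values had been seen. The 250 bases before the start are printed for the 4 genes, 5′ to 3′ on the strand of the gene, with the CArG boxes in capitals (build GRCh38.p14: FLNA chrX:154374635-154374884 on the minus strand, TPM4 chr19:16067288-16067537, CNN2 chr19:1026358-1026607 and SRF chr6:43171019-43171268 on the plus strand).
FLNA: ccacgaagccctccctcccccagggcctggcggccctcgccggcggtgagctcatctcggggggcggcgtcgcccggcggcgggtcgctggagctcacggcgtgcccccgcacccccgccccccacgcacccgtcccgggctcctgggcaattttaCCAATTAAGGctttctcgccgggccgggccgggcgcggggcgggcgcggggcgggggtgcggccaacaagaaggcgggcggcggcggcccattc
TPM4: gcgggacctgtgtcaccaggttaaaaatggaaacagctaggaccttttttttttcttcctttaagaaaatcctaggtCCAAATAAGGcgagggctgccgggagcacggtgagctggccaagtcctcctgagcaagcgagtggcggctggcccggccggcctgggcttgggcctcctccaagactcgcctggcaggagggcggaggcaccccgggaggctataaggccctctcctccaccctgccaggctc
CNN2: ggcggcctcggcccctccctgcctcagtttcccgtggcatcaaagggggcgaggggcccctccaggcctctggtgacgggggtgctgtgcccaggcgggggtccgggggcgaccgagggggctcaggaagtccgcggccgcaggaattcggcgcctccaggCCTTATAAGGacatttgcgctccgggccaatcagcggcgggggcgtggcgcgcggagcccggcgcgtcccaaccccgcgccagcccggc
SRF: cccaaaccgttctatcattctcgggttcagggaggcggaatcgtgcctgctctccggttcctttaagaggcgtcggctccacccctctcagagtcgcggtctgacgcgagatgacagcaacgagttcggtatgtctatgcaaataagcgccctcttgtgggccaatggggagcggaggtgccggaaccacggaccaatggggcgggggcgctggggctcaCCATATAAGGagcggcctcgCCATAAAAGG
The first base of the box lay at -94 in FLNA, -173 in TPM4 and -89 in CNN2 relative to the gene start, and SRF had boxes at -30 and -10. The 4 genes were not the members with the largest changes, which ran from -0.11 for SRF to -0.68 for FLNA. A match is a description of the letters, and no match says only that the letters are not in this window.

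Genes of the extracellular matrix were lower on the whole, with exceptions. Of 31 expressed members of the list of collagens and matrix genes, 25 had a change below 0, the median was -0.41 (-0.27 at a minimum mean of 5 FPKM), and 2 were at least 2-fold lower against 0.67% of all coding records. These were COL13A1, a transmembrane collagen, at 1.24 FPKM at day 2 and 0.307 FPKM at day 4, and NID1, the basement membrane linker nidogen, at 13.5 and 5.69 FPKM. LOX, which crosslinks collagen, was at 23.5 and 12.1 FPKM. The basement membrane collagens COL4A1 (53 and 37.4 FPKM) and COL4A2 (85.4 and 62.1 FPKM) were less than 1.5-fold apart. SPARC, the most abundant member, was at 519 and 484 FPKM, and COL3A1 at 162 and 137 FPKM. VCAN, a proteoglycan, at 51.3 and 55.8 FPKM and COL11A1 at 50.4 and 55.2 FPKM lay slightly on the other side. Around this list, secreted regulators of proteolysis were among the 15 coding genes with the largest decreases. PLAU, the urokinase-type plasminogen activator, was at 12.3 FPKM at day 2 and 3.62 FPKM at day 4, 3.35-fold lower, but 28.75% of its exon bases lie opposite exons of C10orf55, and reads of the 2 strands cannot be told apart. TFPI2, a protease inhibitor deposited in the matrix, was at 51.6 and 16.3 FPKM.

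The gene with the largest decrease was ANKRD1 (hg19 chr10:92671857-92681032, minus strand), a muscle ankyrin repeat protein and a known target of the YAP coactivator. It was at 12.8 FPKM at day 2 and 1.83 FPKM at day 4, 6.73-fold lower, and it stood at 13.6, 8.01, 0.734, 0.0720 and 0.0400 FPKM on days 0, 1, 5, 11 and 18. The list of YAP-TEAD targets leaned the same way by a smaller amount. Of 22 members 18 had a change below 0, against 6012 of all 11793 coding records, with a median of -0.18. At least 2-fold lower were 3 of 22, against 0.67% of all coding records. Among them were ANKRD1 and AXL, a receptor tyrosine kinase at 16.2 and 8.07 FPKM. The most abundant members were CTGF at 296 and 226 FPKM, CYR61 at 98.4 and 104 FPKM and THBS1 at 89.5 and 90.2 FPKM, all secreted matricellular proteins. The changes of CYR61 and THBS1 were thus below 0.1 on the log2 scale, where that of ANKRD1 was -2.75. YAP1 itself was listed at 35.7 FPKM on both days.

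The FGF-ERK list had the lowest median after the contractile list among the lists with at least 10 expressed members. It holds feedback inhibitors and transcription factors that the cascade induces. Of 19 expressed members, 17 had a change below 0, the median was -0.62, and 4 were at least 2-fold lower against 0.67% of all coding records, with 10 at least 1.5-fold lower against 2.93%. FOSL1, the AP-1 subunit Fra-1, was at 6.21 FPKM at day 2 and 1.88 FPKM at day 4, 3.20-fold lower. ETV4, an ETS factor induced by FGF, was at 18.0 and 6.46 FPKM, and its relative ETV5 at 10.2 and 5.38 FPKM. The inhibitors followed the same direction, with SPRY4 at 17.8 and 7.84 FPKM, SPRY1 at 11.0 and 6.12 FPKM and the ERK phosphatase DUSP6 at 51.7 and 33.8 FPKM. IER3, an early response gene, was at 10.2 and 4.58 FPKM. The exceptions were IL17RD, another FGF inhibitor, at 9.31 and 12.4 FPKM, and CCND1, which encodes cyclin D1, at 58.6 and 59.2 FPKM. Other ETS family genes outside the list were lower too, as FLI1 was at 2.24 and 0.449 FPKM and ETS1 at 18.5 and 8.17 FPKM, and these 2 lie 99.0 kb apart on chromosome 11. Both FOSL1 and ETV4 had their highest values on day 0, before FGF was withdrawn, at 17.6 and 69.3 FPKM.

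Immediate early genes, which respond to stimuli within minutes, were mostly lower. Of 12 expressed members 10 had a change below 0 and the median was -0.40. None was at least 2-fold lower, and 4 were at least 1.5-fold lower against 2.93% of all coding records. JUND was at 61.8 and 38.6 FPKM, JUN at 45.2 and 35.1 FPKM, ATF3, which is also stress-induced, at 43.2 and 27.3 FPKM, and IER2 at 30.2 and 23.1 FPKM. EGR1 at 22.2 and 23.3 FPKM and FOS at 2.77 and 3.03 FPKM were on the other side of 0. FOSL1 and its relative FOS therefore had changes of -1.68 and 0.13.

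AP-1, the dimer that FOSL1 can form, binds TGACTCA or TGAGTCA, and the looser pattern TGANTCA was counted here. The promoters of 3 genes that were at least 2-fold lower are shown because they hold this pattern. Of the 49 such genes with a RefSeq promoter, 6 (12.2%) held TGANTCA on either strand (ANKRD1, CAPG, EMILIN2, EMP1, IL11 and TFPI2) against 7.8% of all promoters and 4.0% of those of expressed coding records. The TEAD sequence GGAATG was in 7 of the 49 (14.3%) against 14.0% of all promoters, and in 7 of the 17 promoters of the YAP-TEAD list (41.2%). TGANTCA was in 1 of 11 promoters of the FGF-ERK list, that of SPRED3, and in 0 of 23 of the matrix list and 0 of 17 of the contractile list. Both motifs were chosen after the values had been seen. The sequences give TGANTCA and GGAATG in capitals (GRCh38.p14, minus strand: ANKRD1 chr10:90921088-90921337, IL11 chr19:55370464-55370713 and TFPI2 chr7:93890754-93891003).
ANKRD1: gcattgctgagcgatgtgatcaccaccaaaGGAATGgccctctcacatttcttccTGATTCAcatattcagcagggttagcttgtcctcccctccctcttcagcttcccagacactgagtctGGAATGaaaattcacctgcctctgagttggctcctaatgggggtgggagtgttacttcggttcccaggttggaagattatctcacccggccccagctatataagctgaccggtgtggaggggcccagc
IL11: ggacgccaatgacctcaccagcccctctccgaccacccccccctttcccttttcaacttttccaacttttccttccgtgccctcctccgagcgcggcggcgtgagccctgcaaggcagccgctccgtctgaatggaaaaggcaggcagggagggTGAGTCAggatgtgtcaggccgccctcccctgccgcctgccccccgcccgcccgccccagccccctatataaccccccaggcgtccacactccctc
TFPI2: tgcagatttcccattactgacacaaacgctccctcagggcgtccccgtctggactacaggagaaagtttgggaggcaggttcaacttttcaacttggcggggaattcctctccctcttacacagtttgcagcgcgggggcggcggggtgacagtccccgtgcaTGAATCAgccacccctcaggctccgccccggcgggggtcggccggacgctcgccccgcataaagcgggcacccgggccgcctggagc
In ANKRD1 the TGANTCA match was TGATTCA and began at -195, between GGAATG matches at -220 and -128. The match began at -96 in IL11, a cytokine of the IL-6 family that was at 1.46 and 0.382 FPKM, and at -87 in TFPI2. It was TGAGTCA in IL11 and TGAATCA in TFPI2, so of the 3 only IL11 held the stricter sequence.

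Stress-related genes made up a further part of the decrease. GDF15 (hg19 chr19:18496968-18499986, plus strand), a secreted cytokine induced by p53 and by the integrated stress response, was at 21.4 FPKM at day 2 and 3.49 FPKM at day 4, 6.02-fold lower. It stood at 5.98 and 12.4 FPKM on days 0 and 1, so day 2 held its highest value of the course. In the list of the integrated stress and unfolded protein response, 21 of 22 members had a change below 0, the median was -0.34 and none was at least 2-fold lower. Its most abundant members were ATF4, the transcription factor of the response, at 485 and 376 FPKM, the asparagine synthetase ASNS at 320 and 261 FPKM, PHGDH of serine synthesis at 300 and 255 FPKM and SLC3A2, an amino acid transporter subunit, at 273 and 219 FPKM. TRIB3 and DDIT3 had the largest decreases of the list, at 92.3 and 52.7 FPKM and at 83.5 and 51.5 FPKM. INHBE, an activin subunit outside the list, was at 13.3 and 4.99 FPKM. Among 20 p53 targets, 15 had a change below 0, the median was -0.21 and GDF15 was the only member past 2-fold. CDKN1A, which encodes the cell cycle inhibitor p21, was at 129 and 107 FPKM and MDM2 at 47.0 and 38.2 FPKM. GDF15 therefore stood well apart from the other p53 targets, of which the next was DDB2 (in a record that also carries the symbol ddb2) with a change of -0.61.

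Several other groups leaned the same way by smaller amounts. In cholesterol and fatty acid synthesis, 24 of 30 members had a change below 0 with a median of -0.22, and 1 member was at least 2-fold lower. HMGCS1, which makes HMG-CoA, was at 334 and 324 FPKM and FDFT1, the squalene synthase, at 257 and 218 FPKM. In the IGF list, 10 of 11 members had a change below 0 with a median of -0.28. IGFBP3, a carrier of IGF, was at 30.4 and 9.70 FPKM, 3.12-fold lower, and IGFBP2, the most abundant carrier, at 273 and 225 FPKM. All 12 expressed oncofetal and pluripotency genes had a change below 0 with a median of -0.28, led by HMGA1, a chromatin protein, at 144 and 89.0 FPKM and LIN28A (listed as LIN28), which blocks let-7 processing, at 16 and 10.3 FPKM. None of these 12 was at least 2-fold lower. Of 14 histone genes 11 had a change below 0 with a median of -0.39, which was -0.14 at a minimum mean of 5 FPKM. H1F0, a linker histone of slowly dividing cells, was at 61.3 and 30.2 FPKM.

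Some decreases concerned genes best known from immune and vascular cells, which were chosen after their values were seen. ICAM1, a leukocyte adhesion receptor, was at 3.91 FPKM at day 2 and 0.694 FPKM at day 4, 5.06-fold lower. TLR4, an innate immune receptor, was at 1.80 and 0.625 FPKM and EDN1, the peptide endothelin, at 1.92 and 0.632 FPKM. In the list of endothelial, blood, epithelial and muscle markers 4 of 19 members with a record were expressed, 3 of the 4 had a change below 0, and KDR, the receptor of VEGF, was 3.01-fold lower. Among the 8 expressed genes of the neural crest and mesenchyme list 5 had a change below 0 with a median of -0.20, but that median was 0.20 when only records with a mean of at least 5 FPKM were kept. The part of such cells in the decreases was not tested. ANXA3 and ANXA1, which encode membrane-binding annexins, were at 5.94 and 1.10 FPKM and at 171 and 66.2 FPKM. SPP1, the secreted phosphoprotein osteopontin, was at 148 and 65.6 FPKM and A2M, a plasma protease inhibitor, at 171 and 69.5 FPKM. PHLDA2, an imprinted growth gene, was at 7.38 and 1.66 FPKM and LAMP3, a lysosomal membrane protein, at 5.39 and 1.71 FPKM.

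Further records at least 2-fold lower belonged to none of the lists. Surface and contact genes among them were ITGA3, an integrin subunit, at 7.59 and 3.34 FPKM, CLDN1, a tight junction protein, at 4.02 and 1.77 FPKM, EMP1 and EMP3, epithelial membrane proteins, at 7.79 and 3.56 FPKM and at 8.34 and 3.51 FPKM, and PLXND1, a semaphorin receptor, at 11.7 and 5.77 FPKM. SERPINE2, a protease inhibitor, was at 30.5 and 14.6 FPKM, AEBP1, a matrix protein, at 15 and 7.28 FPKM and BGN, the proteoglycan biglycan, at 0.892 and 0.251 FPKM. HMOX1, the stress-induced haem oxygenase, was at 7.48 and 3.02 FPKM, MAFF, a small MAF factor, at 8.76 and 4.15 FPKM and MXD1, a MAX partner, at 6.83 and 3.19 FPKM. Others were CRHBP, SMAGP, PLA2G3, C12orf39, HTATIP2, ARHGDIB, RRAS, SULF1, RASD1, GLIPR1, GPR126, STX3, CYB5R2, S100A16, TSPO, PDZD2, APLN, RENBP, B4GALT1, TMEM71 and CYP1B1, from 2.04-fold (CYP1B1) to 3.01-fold lower (CRHBP). Pairs within 250 kb of each other among the records at least 2-fold lower included ETS1 and FLI1, A2M and PZP (32.9 kb apart) and PGPEP1 and GDF15 (16.2 kb). Both genes of a pair were lower by selection, and whether neighbours were lower together more often than other genes was not tested.

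**Figure D2:**
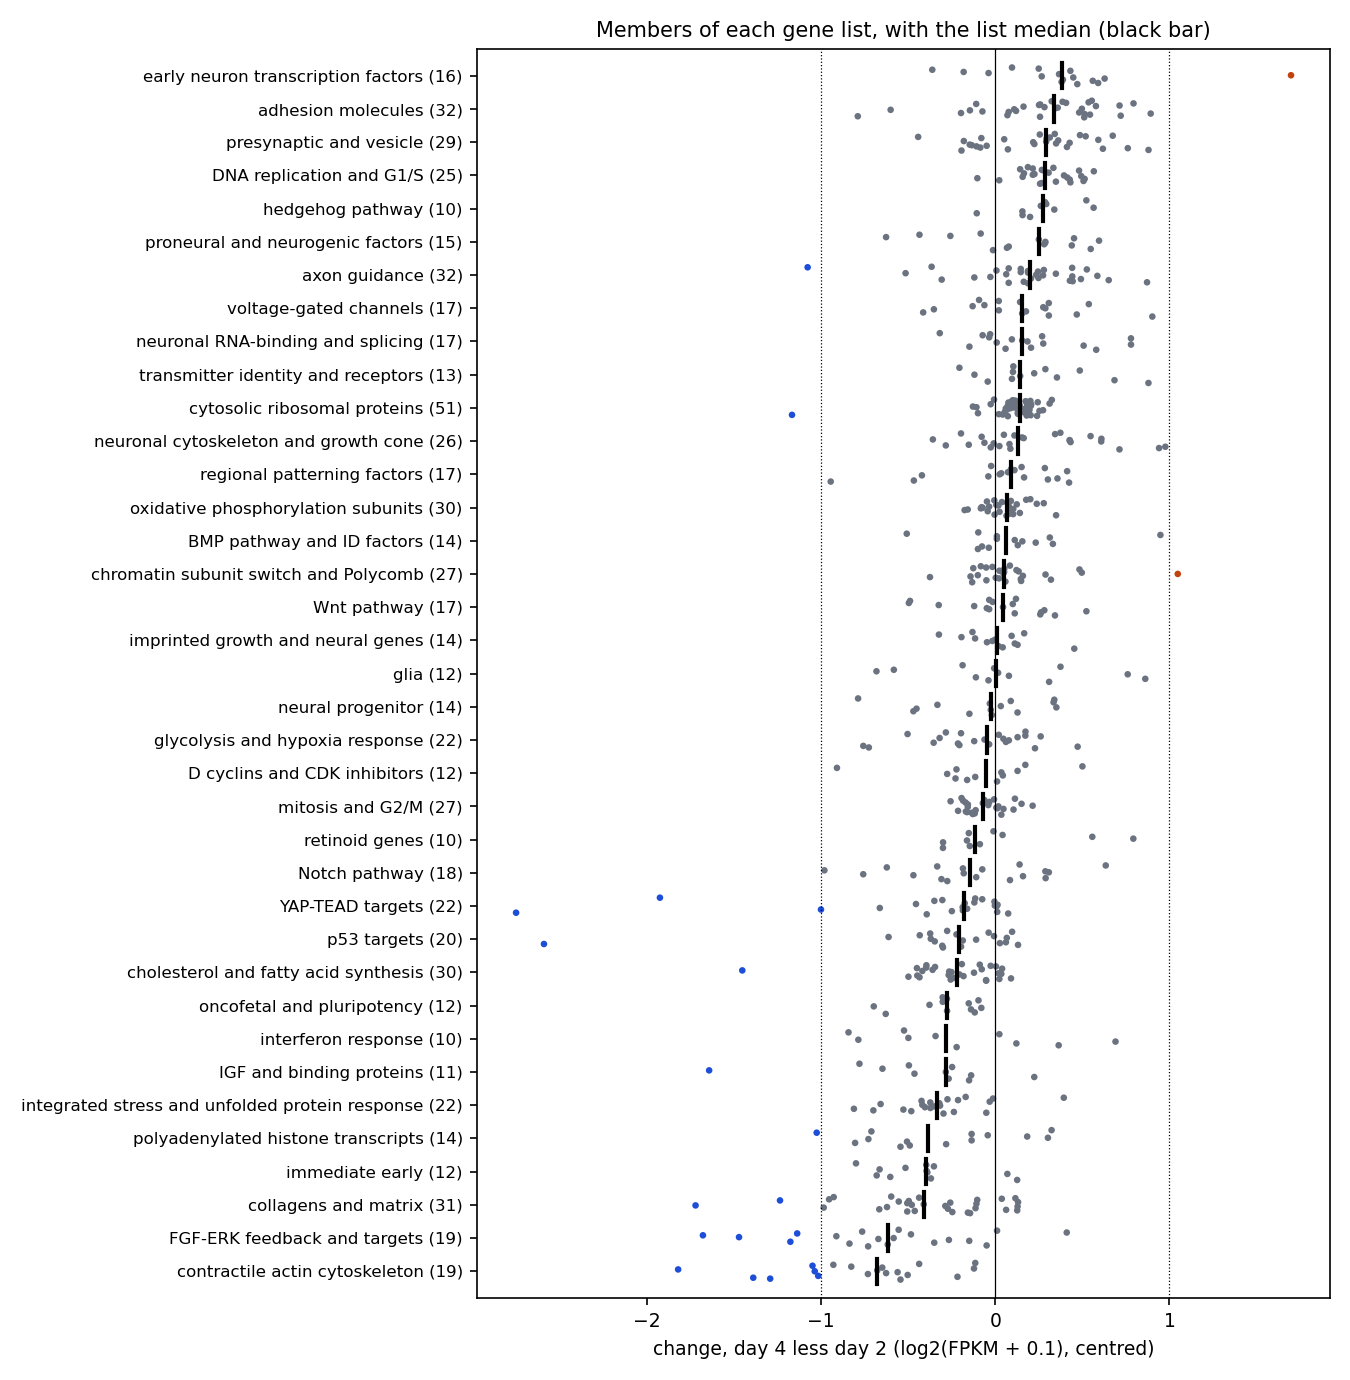
Change from day 2 to day 4 (horizontal axis, log2(FPKM + 0.1), centred) of each expressed member of the lists with at least 10 such members, ordered by the list median (black bars), with the number of members in brackets. Orange and blue points are at least 2-fold higher and lower. The contractile actin list lies wholly below 0 with a median of -0.68, and early neuron transcription factors have the highest median, 0.38.

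The genes that were at least 2-fold higher at day 4 were at low levels. Of the 15 coding records at least 2-fold higher, 12 lay between 1 and 5 FPKM in mean level and none above 10 FPKM. HLA-H, an HLA class I pseudogene with near-identical relatives, had the largest increase, from 0.0608 FPKM at day 2 to 4.43 FPKM at day 4, but its values jumped from day to day (0.0118, 5.79, 0.436, 2.79 and 0.301 FPKM on days 0, 1, 5, 11 and 18), so its assignment of reads is uncertain. SST (hg19 chr3:187386696-187388201, minus strand), the neuropeptide somatostatin, was at 0.275 and 1.24 FPKM, 3.55-fold higher, and reached 13.7 FPKM at day 11. MYT1L (hg19 chr2:1792887-2335045, minus strand), a zinc finger factor of postmitotic neurons, was at 0.139 and 0.678 FPKM, 3.24-fold higher, and reached 4.10 FPKM at day 18. It was below 1 FPKM on every day up to day 5. It therefore passed the minimum mean through days 11 and 18, and its later level is not separate from the selection. Folds include the pseudocount of 0.1 FPKM and depend on it at such levels. The change of MYT1L, 1.70 as reported, was 0.56 with a pseudocount of 1 FPKM and 2.2 with 0.01 FPKM. For SST the change of 1.83 became 0.81 and 2.12. ACTL6B, the neuronal subunit of the BAF chromatin remodeller, was at 1.96 and 4.17 FPKM, while its progenitor counterpart ACTL6A was at 33.0 and 40.4 FPKM. TUBB4, a tubulin of neurons, was at 1.33 and 2.78 FPKM and was higher on each later day, up to 25.3 FPKM at day 18. NPPC, which encodes C-type natriuretic peptide, was at 2.18 and 4.95 FPKM, CNTNAP5, a neurexin relative, at 0.696 and 1.66 FPKM, and ZNF804A, a zinc finger protein, at 0.331 and 0.797 FPKM. SMOC2, a matricellular protein, was at 1.58 and 4.11 FPKM but had its highest value on day 0, at 5.15 FPKM. The remaining members were CCDC29, STK32A, a protein kinase, MASP1, a complement protease, NDST4 of heparan sulfate synthesis, C12orf69 and GRB14, an adaptor of the insulin receptor, all between 2.01-fold and 2.25-fold higher.

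Beyond these, neuronal gene lists leaned upwards by less than 2-fold. Early neuron transcription factors had a median of 0.38, with 13 of 16 expressed members above 0. POU4F1, a POU factor of sensory neurons, was at 7.10 and 9.91 FPKM, EBF3 at 4.63 and 6.36 FPKM and EBF2 at 2.91 and 4.56 FPKM. POU3F2, the most abundant member, was at 67.1 and 65.5 FPKM and POU3F3 at 40.9 and 36.2 FPKM. These 2 POU3F genes, which progenitors also express, were among the 3 members below 0. Among proneural and neurogenic factors 10 of 15 were above 0 with a median of 0.25, which was 0.09 with a pseudocount of 1 FPKM and 0.10 at a minimum mean of 5 FPKM. NEUROG2 was at 5.24 and 7.73 FPKM, NHLH1 at 16.8 and 22.9 FPKM and HES6 at 42.8 and 52.4 FPKM, while TCF3, a partner of proneural factors, was at 57.2 and 54.1 FPKM.

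Adhesion molecules had a median of 0.33 with 26 of 32 above 0. CNTN2, an axonal contactin, was at 8.22 FPKM at day 2 and 15.4 FPKM at day 4 and NCAM1, a cell adhesion molecule of neurons, at 16.6 and 23.7 FPKM. L1CAM, also an axonal adhesion molecule, went the other way from 28.4 to 16.4 FPKM. CDH2, the cadherin of neural tissue, was the most abundant at 199 and 216 FPKM. Of 32 axon guidance genes 26 were above 0 with a median of 0.20, led by SEMA3D, a repellent, at 2.46 and 4.60 FPKM and EPHA4, an ephrin receptor, at 8.09 and 12.2 FPKM. UNC5B, a netrin receptor, was the only member at least 2-fold lower at 5.98 and 2.79 FPKM. SEMA3A, a secreted repellent, was at 43.8 and 50.1 FPKM.

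The presynaptic list had a median of 0.29 with 20 of 29 above 0, and 5 of the 29 were at least 1.5-fold higher against 1.33% of all coding records. SYT4, a vesicle synaptotagmin, was at 3.51 and 6.57 FPKM, SNAP25, a subunit of the fusion complex, at 2.36 and 4.09 FPKM and PCLO, an active zone scaffold, at 9.96 and 15.1 FPKM. VAMP2, the most abundant vesicle fusion gene, was at 63.7 and 81.4 FPKM, and SYT1 at 19.2 and 16.8 FPKM. In the neuronal cytoskeleton list 18 of 26 were above 0 with a median of 0.13 and again 5 at least 1.5-fold higher. STMN2, a microtubule regulator of growth cones, was at 68.1 and 131 FPKM, its relative STMN4 at 7.15 and 14.2 FPKM, and DCX, a marker of migrating neurons, at 14.3 and 23.5 FPKM. NEFM was at 62.8 and 96.1 FPKM and its partner NEFL at 124 and 96.9 FPKM, so 2 neurofilament subunits lay on opposite sides of 0.

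Genes of excitability showed smaller leanings. Of 17 voltage-gated channel genes 12 were above 0 with a median of 0.15, and SCN1A, a sodium channel, was at 0.272 and 0.596 FPKM. Of 13 transmitter and receptor genes 10 were above 0 with a median of 0.14. SLC17A6, the vesicular glutamate transporter VGLUT2, was at 2.41 and 4.54 FPKM, and the glutamate receptor GRIA1 at 60.4 and 58.8 FPKM. Among neuronal RNA-binding and splicing genes 12 of 17 were above 0 with a median of 0.15. SRRM4, a neuronal splicing activator, was at 0.964 and 1.73 FPKM, and PTBP1, its opponent in progenitors, at 106 and 104 FPKM.

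**Figure D3:**
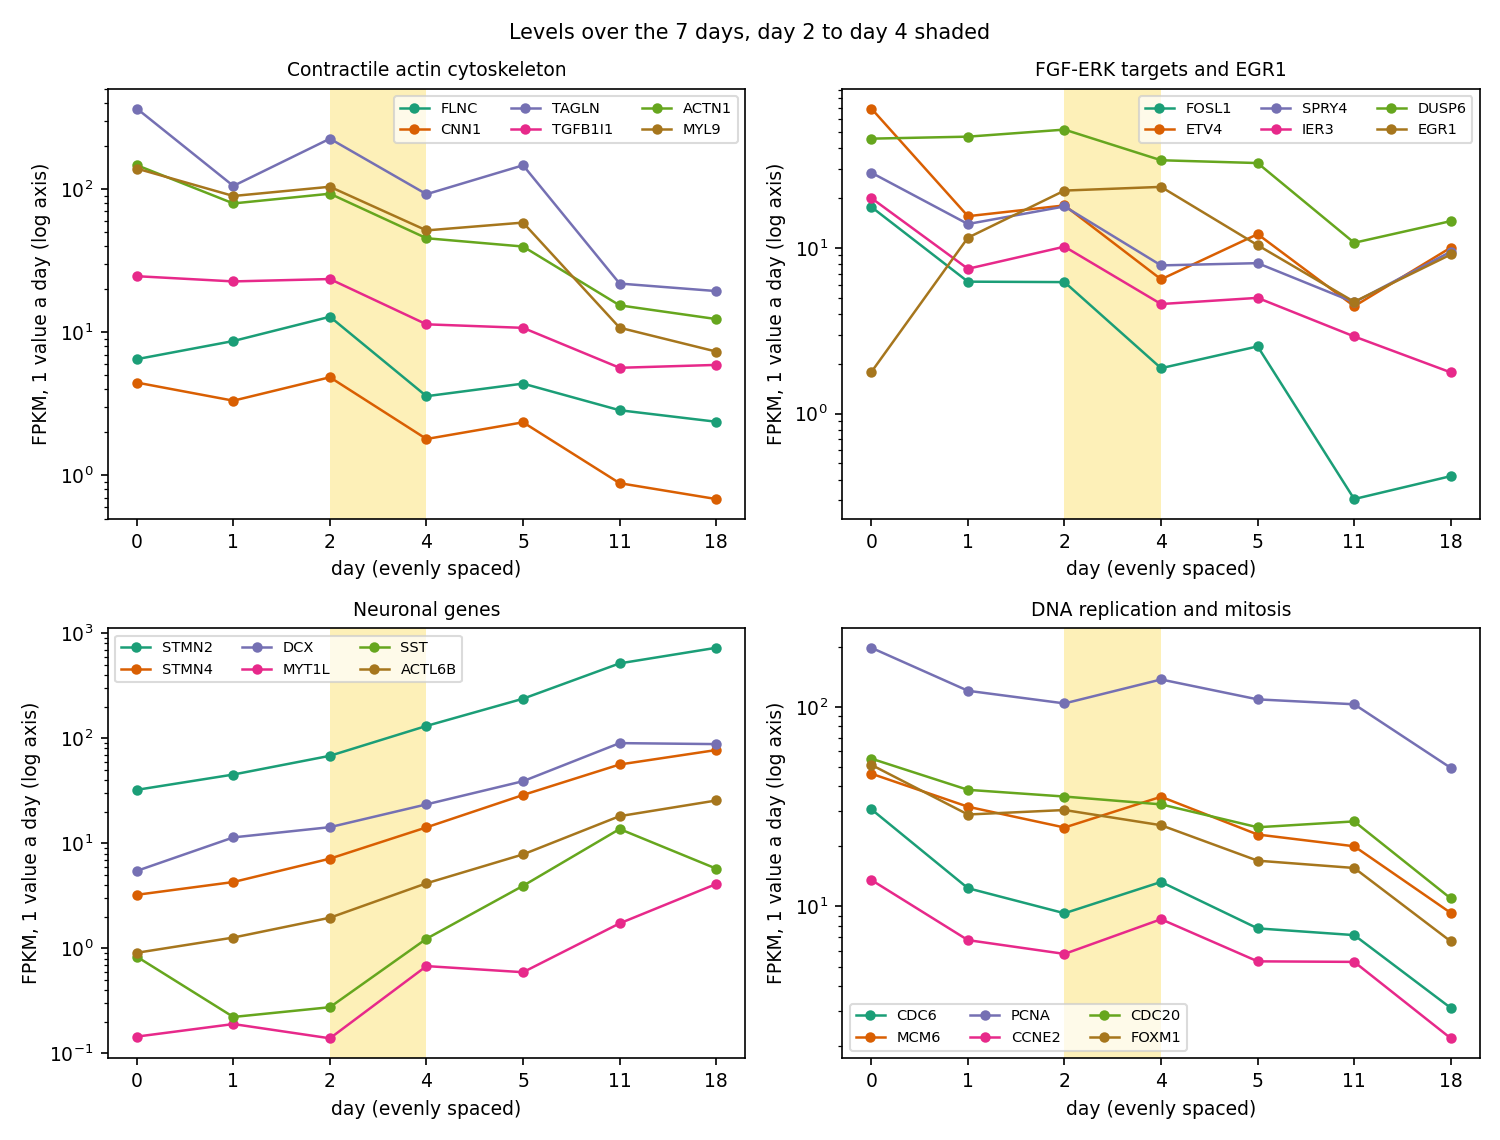
FPKM on a log axis over the 7 days (evenly spaced) of 24 genes in 4 panels, with 1 pooled value a day and the interval from day 2 to day 4 shaded. Contractile and FGF-ERK genes are lower at day 4 than at day 2 except EGR1 (22.2 and 23.3 FPKM), neuronal genes are higher, and PCNA, MCM6, CDC6 and CCNE2 have a local peak at day 4 where CDC20 and FOXM1 have none.

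Cell cycle genes divided by phase. In the list of DNA replication and the G1 to S transition, 24 of 25 members had a change above 0 with a median of 0.29, although none reached 1.5-fold, against 1.33% of coding records. PCNA, the sliding clamp, was at 104 FPKM at day 2 and 137 FPKM at day 4. MCM6, a helicase subunit, was at 24.9 and 35.5 FPKM, CDC6, which loads the helicase, at 9.25 and 13.3 FPKM and CCNE2, a cyclin of the transition, at 5.78 and 8.63 FPKM. CDT1, the partner of CDC6, was the only member below 0 at 20.8 and 19.4 FPKM. In the mitosis list 9 of 27 members were above 0 and the median was -0.07, with every member between -0.26 and 0.21. CCNB1, the mitotic cyclin, was at 59.5 and 54.6 FPKM, FOXM1, a transcription factor of mitotic genes, at 30.5 and 25.5 FPKM and TOP2A at 58.0 and 60.1 FPKM. Over days that this interval does not share, both lists were lower later in the course. The medians from day 1 to day 5 were -0.45 for replication and -0.48 for mitosis, and those from day 0 to day 18 were -1.93 and -1.98. The D cyclins and CDK inhibitors had a median of -0.05 with 6 of 12 above 0, and CDKN2B, an inhibitor of the D cyclin kinases, was at 2.68 and 1.38 FPKM.

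The promoters of the 2 cell cycle lists hold different letters, and 3 are shown because the replication genes moved together. The E2F core TTCCCGC was on either strand in 10 of 22 promoters of the replication list (45.5%) and in 0 of 22 of the mitosis list, against 6.6% of all promoters and 10.6% of those of expressed coding records. The cell cycle homology region TTTGAA was in 14 of 22 mitosis promoters (63.6%) against 15.4% of all promoters and 9.8% of expressed ones. CCAAT was in 19 of 22 mitosis promoters (86.4%) and 15 of 22 replication promoters (68.2%) against 35.7% of all. The sequences give the E2F core, read on either strand, in capitals (GRCh38.p14: MCM3 chr6:52284743-52284992 and PCNA chr20:5126623-5126872 on the minus strand, CDT1 chr16:88803539-88803788 on the plus strand).
MCM3: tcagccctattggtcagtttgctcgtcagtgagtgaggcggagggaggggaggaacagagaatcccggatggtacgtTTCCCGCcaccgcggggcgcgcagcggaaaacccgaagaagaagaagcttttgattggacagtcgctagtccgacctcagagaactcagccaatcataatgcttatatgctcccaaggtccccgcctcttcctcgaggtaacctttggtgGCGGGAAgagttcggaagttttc
PCNA: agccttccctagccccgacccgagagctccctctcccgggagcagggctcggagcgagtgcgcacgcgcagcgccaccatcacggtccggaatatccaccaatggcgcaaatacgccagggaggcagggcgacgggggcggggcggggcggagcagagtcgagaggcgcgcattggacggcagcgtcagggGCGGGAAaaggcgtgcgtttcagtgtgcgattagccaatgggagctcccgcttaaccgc
CDT1: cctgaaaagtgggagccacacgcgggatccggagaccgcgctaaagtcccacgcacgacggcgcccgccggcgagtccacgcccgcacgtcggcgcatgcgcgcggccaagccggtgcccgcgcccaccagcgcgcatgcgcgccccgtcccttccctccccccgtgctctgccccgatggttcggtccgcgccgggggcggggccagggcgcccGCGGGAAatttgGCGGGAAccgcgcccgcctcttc
MCM3, at 45.2 and 54.6 FPKM, had the core at -173 and -23, PCNA at -59 and CDT1 at -35 and -23. CDT1, with its pair of matches, had a change of -0.10, so the letters were present in members on both sides of 0. The E-boxes CAGATG and CAGCTG were in 1 and 3 of 10 promoters of proneural factors and in 1 and 3 of 14 of early neuron factors, against 14.8% and 17.7% of all promoters.

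Among the progenitor, Notch, hedgehog, Wnt, BMP, neurotrophin and glial lists, most medians were near 0, and that of the hedgehog list lay furthest from it. Progenitor genes had a median of -0.02 with 6 of 14 above 0, and only TNC, a matrix protein of radial glia, was at least 1.5-fold lower at 21.5 and 12.4 FPKM. PAX6 was at 6.41 and 8.23 FPKM. In the Notch list 7 of 18 were above 0 with a median of -0.15. The targets HES1 (21.7 and 12.9 FPKM) and HEY1 (4.25 and 2.11 FPKM) were lower, whereas HES5 was at 11.1 and 13.8 FPKM and the ligand DLL1 at 10.1 and 12.4 FPKM, so targets of the same pathway differed in direction. Hedgehog genes had a median of 0.27 with 9 of 10 above 0, but their median from day 1 to day 5 was -0.09. The member below 0 at day 4 was GLI1, a direct target, at 2.69 and 2.50 FPKM, and the coreceptor BOC was the most abundant at 61.5 and 75.3 FPKM. Wnt genes had a median of 0.04 with 9 of 17 above 0, and BMP genes had a median of 0.06 with 9 of 14 above 0, where SMAD9 was at 0.581 and 1.22 FPKM and ID4 at 53.4 and 58.5 FPKM. Of 8 neurotrophin genes 3 were above 0 with a median of -0.11, which was 0.13 when only records with a mean of at least 5 FPKM were kept. VGF, a secreted peptide precursor induced by BDNF, was at 64.1 and 24.9 FPKM, 2.57-fold lower, NTRK2, the BDNF receptor TrkB, at 18.7 and 24.2 FPKM, and NGFR, the p75 receptor, at 8.22 and 15.2 FPKM. Glial genes had a median of 0.005 with 6 of 12 above 0. SLC1A2, a glutamate transporter, was at 1.39 and 2.61 FPKM and APOE at 14.3 and 8.91 FPKM.

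Days 1 and 5 gave the same direction for most coding records past 2-fold. The cells of day 5 came from 2 cultures and had been replated at day 4. Time and the new surface cannot be told apart between days 1 and 5. The level minimum used all 7 days, so these days are not wholly separate from the selection. Of the 79 coding records at least 2-fold lower at day 4, 70 (88.6%) were lower at day 5 than at day 1, against 51.8% of all expressed coding records. Over those days 29 of the 79 were at least 2-fold lower, against 84 of all 11793, and their median change was -0.78. In FPKM without centring, 59 of the 79 were higher at day 2 than at day 1, and 55 were higher at day 5 than at day 4. No share is given for days 0 and 18, because some of the 79 passed the minimum mainly through a high day 0. Some of the 15 that were higher, such as MYT1L, likewise passed it mainly through days 11 and 18. Among the 79, BGN was at 10.9 FPKM on day 0 and 0.892 FPKM at day 2. Of the 15 that were higher, 14 (93.3%) were also higher at day 5 than at day 1, against 48.2% of all, and the exception was HLA-H. At 1.5-fold, 146 of 157 (93.0%) and 309 of 346 (89.3%) had the same direction from day 1 to day 5. Across all 11793 coding records, Pearson's r between the 2 changes was 0.55 and Spearman's rho 0.50. Genes are not independent replicates, and days 1 and 5 share no library with days 2 and 4. With each day centred on its own median, 2 coding records stood more than 2-fold above every other day at day 2, and 0 did so at day 4. The first was RELB, an NF-kappaB subunit, at 2.73 FPKM at day 2 and at most 1.29 FPKM on any other day. The other was an unnamed gene at hg19 chr3:110610987-110612323, minus strand, at 17.2 and 6.05 FPKM. Gene length also differed between the groups as a description: the median genomic span was 73.8 kb for the 15 genes higher, 16.6 kb for the 79 genes lower and 32.4 kb for all.

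**Figure D4:**
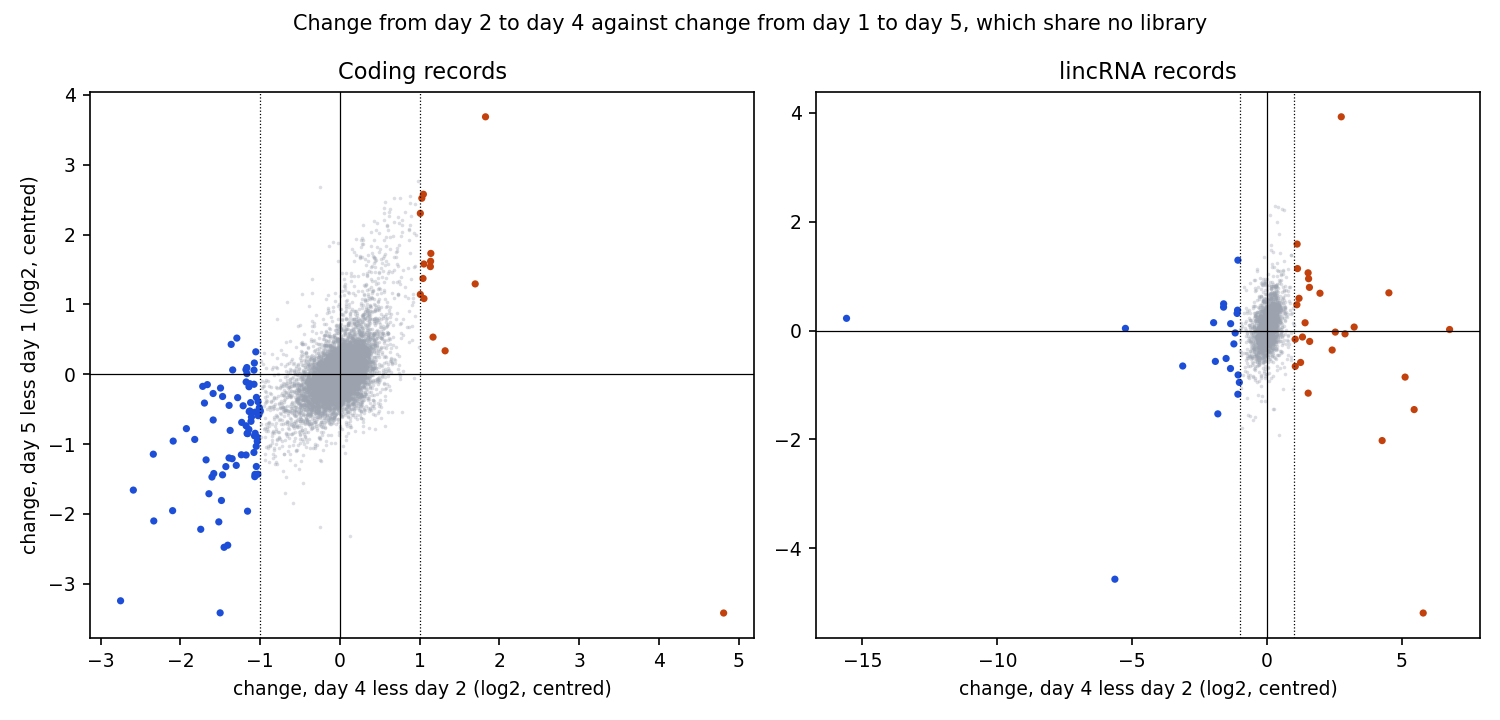
Change from day 2 to day 4 (horizontal axis) against change from day 1 to day 5 (vertical axis), both in log2(FPKM + 0.1), centred, for coding records (left) and lincRNA records (right). Points past 2-fold from day 2 to day 4 are orange (higher) or blue (lower). Of the 79 blue coding points 70 lie below the horizontal line, whereas the 46 coloured lincRNA points fall on either side of it.

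LincRNA records past 2-fold had the same direction from day 1 to day 5 less often than the coding records did, as counts and with no test. Of 2650 expressed lincRNA records, 26 (0.981%) were at least 2-fold higher at day 4 and 20 (0.755%) at least 2-fold lower, and the median size of the change was 0.17. At matched levels the lincRNA median was smaller than that of coding records between 1 and 2 FPKM (0.20 and 0.25) and larger between 10 and 50 FPKM (0.14 and 0.11). Of the 26 that were higher, 13 (50.0%) were also higher at day 5 than at day 1, against 57.85% of all expressed lincRNA records. Of the 20 that were lower, 11 (55.0%) were also lower over those days, against 42.15% of all. Across the 2650 records Pearson's r was 0.16 and Spearman's rho 0.36. The records past 2-fold were short, with a median of 1074 and 1159 exon bases for those higher and lower against 3754 for all. Of the 46, 9 were listed at 0 on day 2 or day 4, against 12 of all 2650 (0.45%), and no fold is given against a value of 0.

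Most of the 46 lay over other genes' sequences at a limit of 50% of their exon bases. By GENCODE annotation, a split chosen after the values had been seen, 16 had at least 50% of their exon bases in pseudogene exons, a further 14 had at least 50% opposite coding exons, and 16 had neither at that limit. The share of expressed records past 2-fold was 2.83% of 566 pseudogene records, 5.88% of 238 opposite coding exons and 0.87% of 1846 with neither. Without that limit no such excess was seen. Any overlap with opposite coding exons was found in 13 of the 26 higher and 8 of the 20 lower, against 1327 of all 2650. The catalogue's own pseudogene flag marked 8 of the 26 and 5 of the 20, against 800 of all 2650. The kit and the default options do not keep strand, so reads of a gene and of a record opposite its exons cannot be told apart. For the 16 with neither, 6 of 8 that were higher and 6 of 8 that were lower had the same direction from day 1 to day 5. Of all 1846 records of that kind, 1148 were higher and 698 lower over those days, so the count of those higher is close to the background.

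Records opposite coding exons included 5 that were listed at 0 on day 2 and had values on day 4. The first was linc-RPL41-AS (hg19 chr12:56510419-56511742, minus strand), 72.0% of whose exon bases lie opposite RPL41, and it was listed at 0 and 10.9 FPKM with 11.3 FPKM on day 1. The others were linc-ANP32E-AS (5.46 FPKM at day 4), linc-MAP7D1-AS (4.31 FPKM), linc-CUL7-BP (2.20 FPKM) and linc-DEPDC1-AS (1.83 FPKM), each with a value above 1 FPKM on day 1. In the other direction, linc-SEH1L-AS was at 4.87 FPKM at day 2 and linc-C7orf42-AS at 3.69 FPKM, and both were listed at 0 at day 4 and day 5. The coding genes opposite them were steady, as RPL41 was at 2126 and 2261 FPKM, ANP32E at 50.7 and 57.5 FPKM and SEH1L at 15.2 and 15.8 FPKM. The other 7 of the 14 had values on both days. linc-NBPF15-AS was at 1.37 and 5.65 FPKM, linc-ISCU-AS at 3.40 and 8.23 FPKM, linc-USP5-AS at 0.923 and 2.86 FPKM, linc-TIMP2-AS at 0.390 and 1.33 FPKM and linc-FAM86B1-AS at 0.625 and 1.40 FPKM. In the lower direction, linc-XPO6-AS was at 1.98 and 0.584 FPKM and linc-THRAP3-AS at 2.21 and 0.973 FPKM.

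Listed values of pseudogene records of a single parent gene differed in opposite directions, and not every listed 0 can be read as a level. For EEF1A1, the translation elongation factor, linc-STEAP1B-1 (hg19 chr7:22550003-22551652, minus strand, 95.3% in EEF1A1P6) was at 4913 FPKM at day 2 and listed at 0 at day 4. It was also listed at 0 on day 18, was at 4067 FPKM on day 5, and carried the program's mark for too many fragments. The EEF1A1P5 records linc-GTF3C5 and linc-GFI1B-AS, with the same mark, were listed at 0 on every day after day 0. The 0 of linc-STEAP1B-1 at day 4 therefore cannot be read as a fall. Without failed estimates, 24 lincRNA records were at least 2-fold higher and 19 lower. Over the same days linc-ALG14-6, opposite EEF1A1P11, was at 19.4 and 104 FPKM, linc-RGPD4-5, opposite EEF1A1P12, at 1.43 and 11.3 FPKM, and linc-RGPD3-2, over nearly the same bases on the other strand, at 5.19 and 15.8 FPKM. On day 18 these 3 were at 78.3, 17.8 and 8.74 FPKM, again above their values of day 11. The parent record, which merges EEF1A1 and EEF1A2, was at 2959 and 3124 FPKM. For RPL7, a ribosomal protein of the large subunit, the gene itself was at 125 FPKM at day 2 and between 38.8 and 55.8 FPKM on the other 6 days. The short record linc-WDR41, opposite RPL7P23, was at 801 FPKM at day 2 and between 150 and 263 FPKM on the others, while linc-ALG14-7, over RPL7P9, was at 899 and 1271 FPKM. For NPM1, linc-COQ10B-1 and linc-ANKRD44 span the same bases on opposite strands (hg19 chr2:198244088-198245718), and they were at 0.00742 and 3.65 FPKM and at 6.23 and 2.39 FPKM. The other named pseudogene records were linc-BRWD3 opposite VDAC1P1 (0.269 and 3.38 FPKM), linc-CNKSR3 opposite RPS4XP8 (listed at 0, then 0.577 FPKM), linc-PCDH20-8 over HNRNPA3P5 (1.43 and 8.81 FPKM, with a failed estimate), linc-LRRC37A2 over NSFP1 (3.70 and 0.337 FPKM), linc-SYT7 opposite RPLP0P2 (1.22 and 0.236 FPKM) and linc-C13orf15 opposite OR7E36P (2.80 and 0.673 FPKM). Of 3 more over unnamed pseudogenes, linc-HILPDA-AS was at 1.74 and 3.94 FPKM, with a failed estimate, linc-ZFAND6 at 1.68 and 0.525 FPKM and linc-CD28 at 0.805 and 0.329 FPKM. Reads of near-identical copies can be split among records, so these values are uncertain.

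The 16 lincRNAs below both limits of 50% included some with partial overlaps. Pseudogene PAFAH1B2P2 held 38.8% of the exon bases of linc-CDK17-3, and HSPB1P2 held 38.6% of those of linc-CACNA1F. linc-GPC3 (hg19 chrX:133677797-133679768, minus strand), which lies wholly within the GENCODE gene MIR503HG, the host of a cell cycle microRNA, was at 2.15 FPKM at day 2 and 0.539 FPKM at day 4, 3.53-fold lower, and stayed below 1 FPKM on days 5, 11 and 18. The neighbouring coding gene GPC3 was at 5.21 and 4.60 FPKM. linc-CDK17-4 (hg19 chr12:98506848-98656863, minus strand) was at 2.27 and 6.97 FPKM, and linc-CDK17-3 (hg19 chr12:98102869-98387643, minus strand) at 0.857 and 2.66 FPKM. These 2 records lie on the same strand of chromosome 12 without overlap, and day 4 held the highest value of the course for each, with 1.85 and 1.30 FPKM on day 5. linc-CLASP2-2 was at 0.620 and 1.47 FPKM and linc-NF1, the most abundant of the 16, at 7.95 and 16.6 FPKM with 17.0 FPKM on day 1. Among those lower, linc-PVRL3-1 (4.83 and 2.08 FPKM) overlaps the unnamed chromosome 3 record described above for 24.2% of its exon bases, linc-L3MBTL2-AS was at 3.09 and 1.47 FPKM and linc-CACNA1F at 2.27 and 1.02 FPKM. linc-ARL15-3 (1.46 and 0.647 FPKM), linc-MCF2L-AS (1.40 and 0.543 FPKM), linc-TSPAN11-1 (1.30 and 0.452 FPKM) and linc-ASH1L-2 (1.01 and 0.428 FPKM) completed the group, and the first 3 of them had their highest value on day 0. The remaining records higher at day 4 were linc-DNAJC27-BP, linc-NT5DC1-AS, linc-STAP1-4 and linc-DCHS2-AS, all between 0.303 and 0.912 FPKM at day 2.

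**Figure D5:**
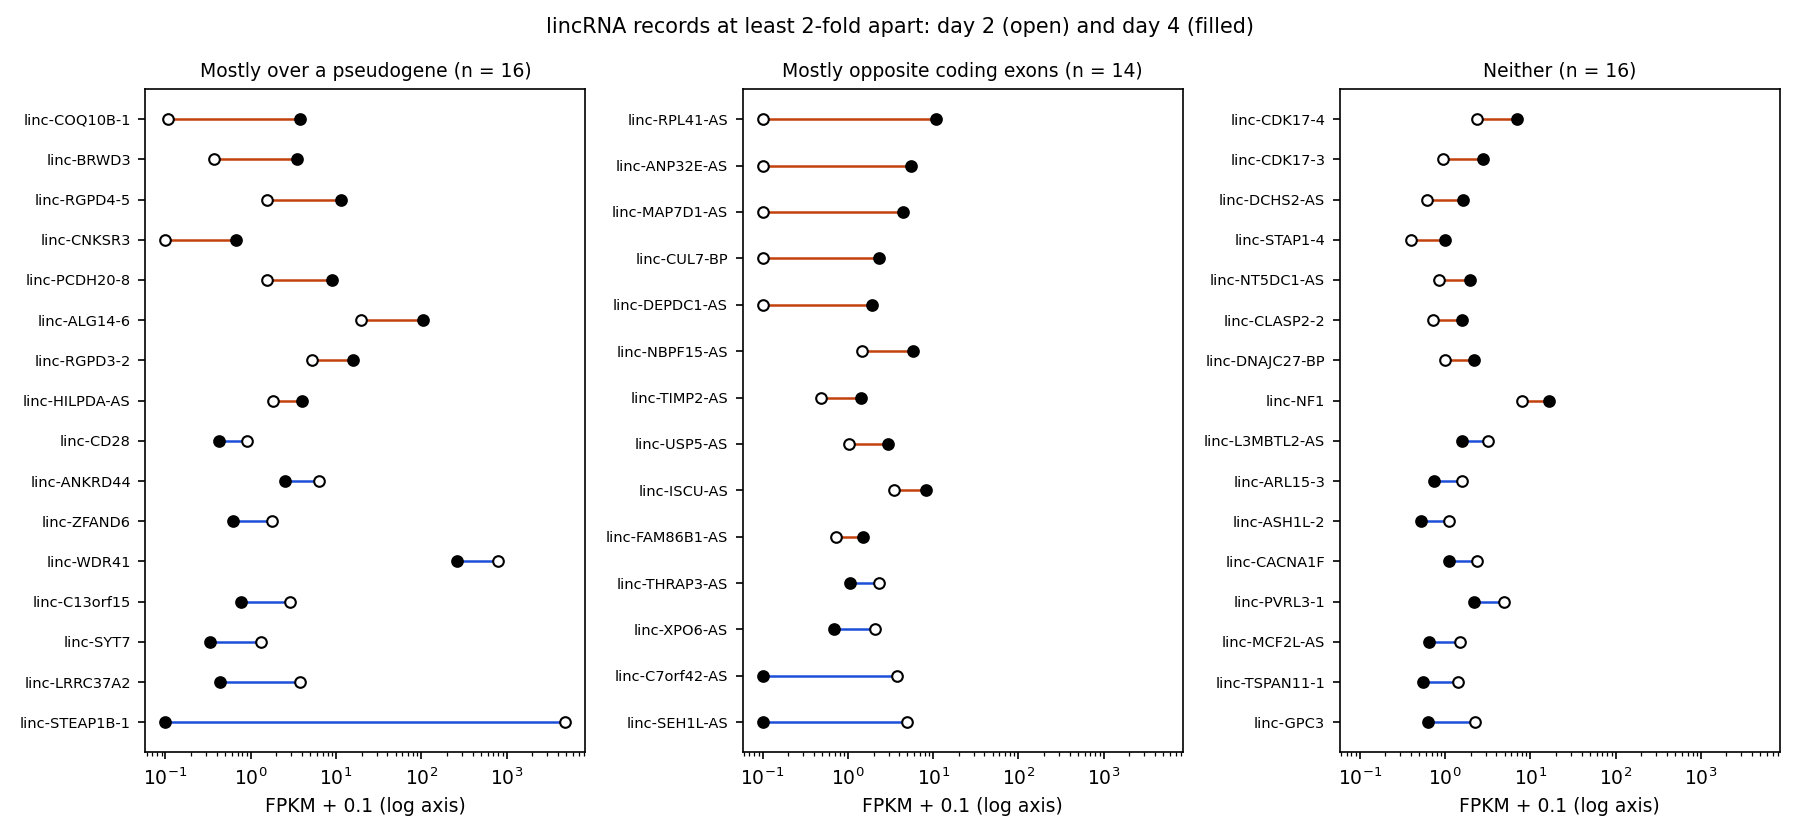
FPKM + 0.1 (log axis) at day 2 (open circles) and day 4 (filled circles) of the 46 lincRNA records at least 2-fold apart, in 3 panels by what their exons lie over. Orange lines join records higher at day 4 and blue lines those lower. Circles at 0.1 are listed at 0 or close to it, and all of those lie in the first 2 panels, while the 16 records in the third differ by 3.53-fold or less.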

How the data were processed

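RNA of differentiating H1-derived neural progenitors was sequenced as paired reads from polyadenylated RNA in 20 libraries, with 3 cultures at each of days 2 and 4. The submitters' processing notes name TopHat2 and the hg19 genome, with versions not given in the sources used here. The authors counted reads with Cuffdiff2 on a catalogue of coding genes and lincRNAs and deposited 1 FPKM per gene and day, pooled over the cultures of that day. The deposited table holds 0 columns of single cultures, so depth per sample is unknown, and no spread or test could be computed. Other deposited columns hold the authors' comparisons of pairs of days (fold changes, test statistics, p-values and q-values) and were not used, except a status word read as a quality mark.

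From the FPKM values, log2(FPKM + 0.1) differences were taken and centred on the median of all records with a 7-day mean of at least 1 FPKM, with Python 3.11.15, numpy 2.4.6, pandas 2.3.3 and matplotlib 3.10.9. The computation was tested on simulated data. Designed tests were replaced by descriptions because the values are pooled. Named genes were the 15 largest higher and lower coding records, the 10 largest lincRNAs in each direction and, within lists, members past 2-fold or up to 4 of the highest mean level, and further members were chosen after their values were seen. Some genes that this rule names are not reported here. The members and the 42 lists of 973 genes, of which 7 had no record, were chosen with earlier results of these data known. Promoters came from RefSeq (GRCh38.p14) by symbol, and record coordinates are those of hg19. The alternatives were other pseudocounts, level minimums, folds and centrings, and the omission of overlapping, pseudogene or failed records.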

Additional observations from a re-analysis of the deposited data

How the results depend on the processing

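With a pseudocount of 1 FPKM, 1 coding record (HLA-H) was at least 2-fold higher and 40 lower, the lincRNA counts were 15 and 8, and the shares with the same direction from day 1 to day 5 were 0.0% for coding records higher and 33.3% for lincRNA records higher. With 0.01 FPKM, 27 coding records were higher. At a minimum mean of 0.1 FPKM, 26 and 158 coding and 156 and 125 lincRNA records were higher and lower. At 5 FPKM, the counts were 3 and 46 coding and 6 and 2 lincRNA records, with lincRNA shares of 16.7% and 0.0%. At 1.5-fold, 157 and 346 coding and 96 and 101 lincRNA records passed, with lincRNA shares of 65.6% and 65.3%. Without lincRNAs antisense to coding exons, 13 and 12 passed, and without those flagged as pseudogenes the share lower was 66.7%. The median of the neural crest and mesenchyme list was -0.198, and 0.197 at a minimum of 5 FPKM, where that of the neurotrophin list turned from -0.108 to 0.131. Other centrings, primary chromosomes alone and omission of failed estimates moved no count by more than 1.5 times. No paired analysis was possible because the table holds 1 pooled value a day, and for the same reason no culture could be left out. Depth per culture and the spread between cultures remained unknown, so no difference could be set against replicate error.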

Other observations

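Abundant housekeeping groups shifted by small amounts. Of 51 cytosolic ribosomal protein genes, 45 had a change above 0 with a median of 0.14, and RPS6, a protein of the small subunit, was at 1807 FPKM at day 2 and 2058 FPKM at day 4. RPL7 was the only member at least 2-fold lower. Of 30 oxidative phosphorylation subunits, 20 were above 0 with a median of 0.07, and NDUFA4, of complex IV, was at 42.6 and 54.4 FPKM. The glycolysis and hypoxia list had a median of -0.05 with 10 of 22 above 0. Its glucose transporters lay on opposite sides of 0, as SLC2A3 was at 49.1 and 29.7 FPKM and SLC2A1 at 175 and 206 FPKM.

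Chromatin genes had a median of 0.05 with 18 of 27 above 0 and ACTL6B as the only member past 2-fold. DPF1, another BAF subunit of neurons, was at 12.8 and 18.2 FPKM and REST, the repressor of neuronal genes, at 7.07 and 6.48 FPKM. Regional patterning factors had a median of 0.09 with 12 of 17 above 0, and the midbrain-hindbrain gene EN2 was at 15.8 and 11.5 FPKM while PAX3 of the dorsal neural tube was at 32.6 and 40.4 FPKM. Retinoid genes had a median of -0.12 with 3 of 10 above 0. CYP26A1, which degrades retinoic acid, was at 3.05 and 5.37 FPKM. Imprinted genes had a median of 0.01 with 7 of 14 above 0. Interferon response genes had a median of -0.28 with 4 of 10 above 0, and IFITM1, a membrane protein induced by interferon, was at 134 and 77.7 FPKM while IFI44L was at 0.905 and 1.53 FPKM. Only 2 metallothionein and zinc export records were expressed, both below 0 with a median of -0.34, and the 1 expressed choroid plexus record, which merges AQP1 with FAM188B and INMT, had a change of 0.38.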
